A study of Mus musculus with 18 samples.

Results

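Interferon-stimulated genes are the genes that cells switch on when an interferon, a secreted cytokine best known from antiviral defense, binds its receptor. A fixed list of 39 such genes was followed in RNA-seq of the mouse heart after a single 25 Gy dose of ionizing radiation, the dose given to patients for refractory ventricular tachycardia. The list was set by gene symbol and role, without a threshold on any measured value, but with earlier results of these data known. The 39 genes are among 30072 listed genes, and all 39 are among the 15054 genes with enough reads to be tested. The samples were interventricular septum from 18 adult CD-1 mice, an outbred strain, at least 8 weeks old, 6 per group. Control mice were sham-treated, with anesthesia and CT imaging but without the therapeutic dose. The irradiated mice were sampled at 2 weeks or at 6 weeks post-IR. The study describes its controls as age-matched, but a single control group served both times, and the labels do not say when it was sampled. Between 2 and 6 weeks, time after irradiation cannot be told apart from age or date of collection. The labels call the treatment gamma irradiation, whereas the methods of the study describe an X-ray small-animal irradiator aimed at the heart and call the RNA ventricular. Males and females were both used, and the sex of each mouse was not among the labels.

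Type I interferons bind the receptor pair Ifnar1 and Ifnar2, whose kinases Jak1 and Tyk2 activate Stat2. With Irf9 it forms part of a complex that binds a promoter element called the interferon-stimulated response element (ISRE), while interferon gamma acts on another element, the gamma-activated site (GAS). In the heart this program is known from viral myocarditis and from the inflammation that follows infarction. The products of the genes sense double-stranded RNA, block viral entry or translation, modify proteins with the ubiquitin-like Isg15, and feed back on the pathway itself.

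Promoter sequence is shown for 8 members as examples of start regions with several, 1 or none of these elements. RefSeq promoter windows (GRCm38.p6, 250 bases before to 50 after each start) were at hand for 30 of the 39 genes. The ISRE was searched as TTTCNNTTTC, which reads GAAANNGAAA on the other strand, and the GAS as TTCNNNGAA, which reads the same on both. An ISRE match lay in the windows of 14 of the 30 genes (46.7%), against 3.44% of all 32851 windows and 3.99% of all genes in the table. A GAS match lay in 8 of the 30 (26.7%), against 8.3% of all windows and 9.55% of all genes. A match is a run of letters and not a shown binding site. The 8 stretches printed here run from base -200 to base -51 before the start site, in the direction of the gene, with every match in capitals.
Isg15 (chr4:156200869-156201018, minus strand): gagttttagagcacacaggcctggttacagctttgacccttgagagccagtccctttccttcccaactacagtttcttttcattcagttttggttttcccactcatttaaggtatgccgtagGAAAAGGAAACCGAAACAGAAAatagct
Ifit1 (chr19:34640689-34640838, plus strand): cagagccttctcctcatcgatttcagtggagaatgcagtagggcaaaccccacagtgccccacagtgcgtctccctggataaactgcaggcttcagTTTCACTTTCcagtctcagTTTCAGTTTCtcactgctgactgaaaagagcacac
Ifit3 (chr19:34583329-34583478, plus strand): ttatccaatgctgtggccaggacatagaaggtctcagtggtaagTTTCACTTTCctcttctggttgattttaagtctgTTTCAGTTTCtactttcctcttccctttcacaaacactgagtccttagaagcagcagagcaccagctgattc
Ifit3b (chr19:34607757-34607906, plus strand): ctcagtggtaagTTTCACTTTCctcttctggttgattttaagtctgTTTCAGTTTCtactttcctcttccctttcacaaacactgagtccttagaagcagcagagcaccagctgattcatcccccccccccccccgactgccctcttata
Oas3 (chr5:120777710-120777859, minus strand): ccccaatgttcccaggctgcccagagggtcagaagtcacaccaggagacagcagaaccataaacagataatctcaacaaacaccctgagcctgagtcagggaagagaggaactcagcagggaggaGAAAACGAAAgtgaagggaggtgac
Bst2 (chr8:71537523-71537672, minus strand): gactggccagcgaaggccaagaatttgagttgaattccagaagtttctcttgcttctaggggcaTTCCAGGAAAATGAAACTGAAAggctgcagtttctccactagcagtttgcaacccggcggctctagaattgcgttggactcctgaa
Irf1 (chr11:53769814-53769963, plus strand): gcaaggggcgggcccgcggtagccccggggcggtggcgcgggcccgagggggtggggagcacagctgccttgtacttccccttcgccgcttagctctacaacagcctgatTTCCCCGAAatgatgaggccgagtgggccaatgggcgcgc
Trim25 (chr11:88999203-88999352, plus strand): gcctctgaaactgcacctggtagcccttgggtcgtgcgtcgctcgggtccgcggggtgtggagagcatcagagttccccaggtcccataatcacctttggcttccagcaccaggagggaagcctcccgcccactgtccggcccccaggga

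The 3 ISRE matches of Isg15 overlap each other and begin at bases -78, -72 and -66. Ifit1 held a pair of separate matches, at -104 and -85. The neighboring genes Ifit3 and Ifit3b shared an identical stretch of 118 of the 150 printed bases that contains both of their ISRE matches. Oas3 held a single ISRE match, and in Bst2 a GAS match overlaps the first of its overlapping ISRE matches. Irf1 had a GAS match at -90 and no ISRE match, and Trim25 had neither in its window. The examples do not stand for the list as a whole. Ifi203, which was not called at either time, held an ISRE match. No ISRE match lay in the windows of Irf7, Irf8, Irf9, Herc6, Ifit2, Oasl1 and Oasl2, all called higher at 6 weeks. The same held for Cmpk2, Dtx3l, Ifi35, Ifi44, Lgals3bp, Samd9l and Xaf1. The map of match positions covers the 18 genes with any match.

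**Figure D1:**
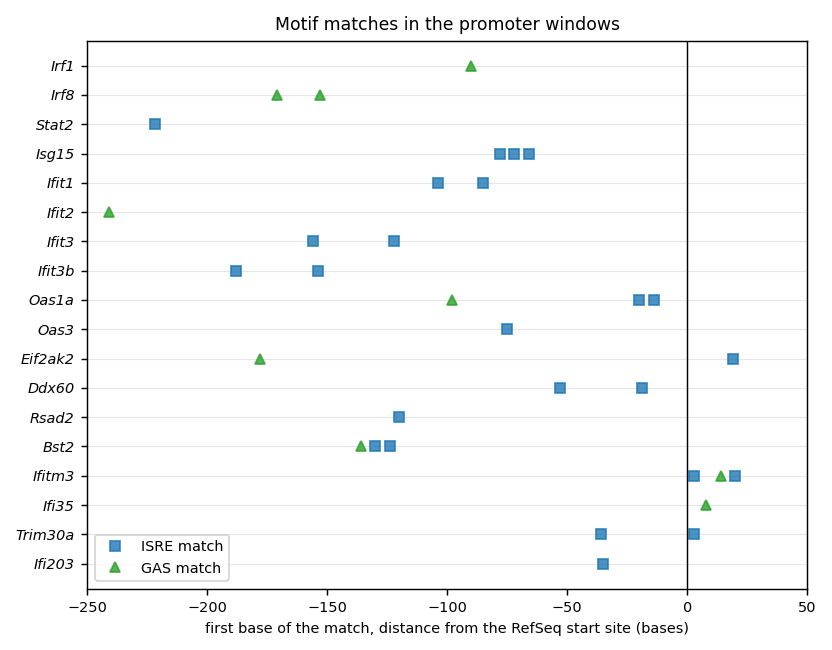
Position of ISRE matches (blue squares) and GAS matches (green triangles) in the promoter windows of the interferon-stimulated genes that held any, in bases from the RefSeq start site (vertical line at 0). ISRE matches occur in 14 genes and GAS matches in 8, and Isg15 holds 3 ISRE matches close together.

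Estimated counts summed to between 11522987 and 15501019 per mouse, and 3 counts correspond to 0.179 to 0.278 CPM (counts relative to the library total), the level under which a gene is hard to tell from absent. CPM values here are scaled by edgeR's TMM factors, which ranged from 0.844 to 1.13 and were highest at 6 weeks. Mitochondrially encoded genes took 19.8% to 25% of control counts, 17.8% to 20.6% at 2 weeks and 16.5% to 20% at 6 weeks. Cardiomyocyte RNA was abundant in all libraries, with 7 cardiomyocyte markers, some also expressed in atria, summing to between 73199 and 109728 CPM. The 3 atrial markers summed to between 0.66 and 583 CPM. Control mouse 4 stood apart in fibroblast markers (3732 CPM, against at most 1582 in the other controls) and in macrophage markers. Mouse 5 at 2 weeks had the 583 CPM of atrial markers, against at most 131 in any other mouse. Without these 2 mice, an alternative chosen after the data were seen, 4 of the 39 genes passed at 2 weeks, 37 at 6 weeks and 23 between 2 and 6 weeks. Of all tested genes, 3.66%, 25.8% and 5.73% then passed in either direction, against 5.04%, 25% and 5.32% with all mice. In bulk tissue, a change in the number of cells that express a gene and a change in RNA per cell cannot be told apart.

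Interferon-stimulated genes were higher at 6 weeks post-IR in 36 of 39 cases, and at 2 weeks the rise was smaller and uneven between mice. Each gene was tested with edgeR's quasi-likelihood test over all 15054 genes, and a gene was called at a Benjamini-Hochberg adjusted P under 0.05. At 6 weeks, 36 of the 39 genes (92.3%) were called higher than in controls, where 13.5% of all tested genes were, and 30 of them rose by more than 1 on the log2 scale, against 5.26% of all genes. The median log2 fold change of the list was 1.61, with a range of 0.03 to 4.08, and that of all tested genes was -0.02. At 2 weeks, 7 of the 39 (17.9%) were called higher, against 3.1% of all genes, and none was called lower, against 1.93%. These were Irf7, Irf8, Irf9, Ifit1, Bst2, Ifitm3 and Lgals3bp. A positive change was nevertheless seen in 37 of 39 genes at 2 weeks, against 49.7% of all genes, 32 had an unadjusted P under 0.05 against 10.6% of all genes, and the median log2 fold change was 0.85 against -0.00 for all genes.

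From 2 to 6 weeks, 19 of the 39 (48.7%) rose further, against 3.31% of all genes, 13 of them by more than 1 on the log2 scale, against 0.963%, and the median difference was 0.78. The comparisons share their control or 2-week mice, so their values are set side by side and not counted as separate evidence. In 32 genes every 6-week mouse lay above every control, against 5.8% of all genes, whereas at 2 weeks the groups were separate for Irf8, Isg15 and Bst2 alone, 3 of 39 genes against 1.96% of all genes. Oas3 and Mx1 passed the filter on low counts through the irradiated mice, and without them 34 of 37 genes were called at 6 weeks. The 2-week count depended on the test and scaling, with 22 genes called by DESeq2, 24 with library size alone as the scaling, 26 and 32 on the log2(TPM + 1) and log2(TPM + 0.1) scales, and 3 by limma voom. It also depended on single mice. It was 2 without 2-week mouse 5, 3 without control mouse 3, control mouse 6 or 2-week mouse 3, and 4 without control mouse 5, 2-week mouse 1 or 2-week mouse 6. It was 11 without control mouse 4 or 2-week mouse 2, and 12 without control mouse 1 or 2-week mouse 4. Leaving out any 1 mouse kept the 6-week count at 36 or 37. The count between 2 and 6 weeks fell to 6 without 2-week mouse 2, to 7 without 2-week mouse 4, 6-week mouse 3 or 6-week mouse 6, to 8 without 2-week mouse 1 and to 10 without 2-week mouse 6. Calls over all genes, in either direction, moved as well. At 2 weeks their share was 5.04% with all mice and 3.01% to 5.87% with 1 mouse left out. Between 2 and 6 weeks it was 5.32% with all mice and 2.18% to 3.18% without the mice just named.

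**Figure D2:**
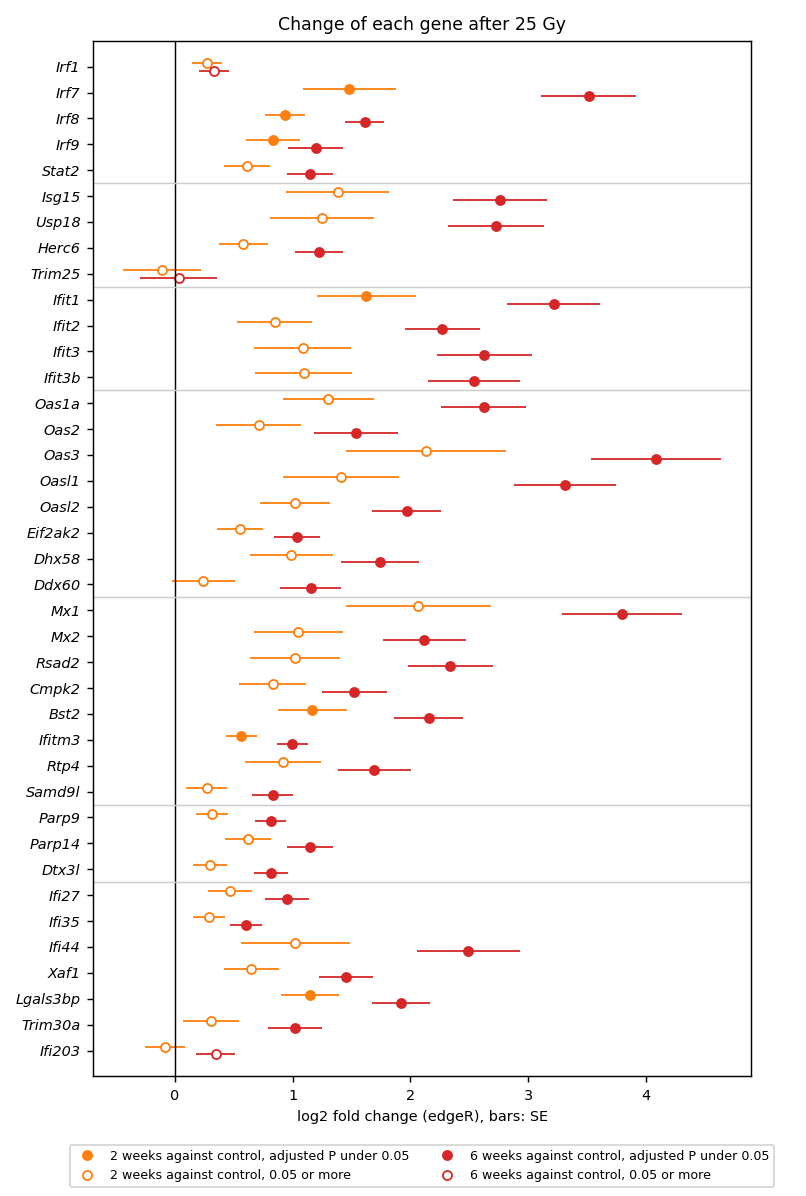
Log2 fold change against control (horizontal axis, bars: SE) of each of the 39 genes at 2 weeks (orange) and 6 weeks (red), grouped by role from transcription factors at the top. Filled points passed an adjusted P under 0.05, which 7 genes did at 2 weeks and 36 at 6 weeks, and the 6-week point lies to the right of the 2-week point in each gene.

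The transcription factors that carry the interferon signal rose in 4 of 5 cases at 6 weeks and in 3 of 5 at 2 weeks. Beside the counts of this and the following role groups stand the shares of all genes called higher. These were 13.5% at 6 weeks, 3.1% at 2 weeks and 3.31% between 2 and 6 weeks. In what follows the levels of a group are given as the lowest, the median and the highest of its 6 mice. Irf7, the factor that amplifies interferon production and many of the genes described here (ENSMUSG00000025498, chr7:141262706-141266481, GRCm38, like the other gene coordinates), was at 3.61, 6.73 and 12.1 CPM in the control group, at 11.5, 20.6 and 33.1 in the 2-week mice and at 26.5, 83.8 and 138 in the 6-week mice. Of the 6 mice at 2 weeks, 4 lay above the highest control, and all 6 did at 6 weeks. On the log2 scale, Irf7 rose by 1.48 (adjusted P = 0.0369, SE 0.4) at 2 weeks and by 3.51 (adjusted P = 8.8e-06, SE 0.4) at 6 weeks, and by 2.03 (adjusted P = 0.00567, SE 0.37) between them, and the changes of other genes are given on the same scale. Irf8, a factor of myeloid cell development (ENSMUSG00000041515, chr8:120736358-120756694), was at 4.53, 6.79 and 9.5 CPM in the control group, at 10.6, 13.6 and 15.4 in the 2-week mice and at 18, 20.5 and 25.4 in the 6-week mice. It was the single gene of the 39 in which the 3 groups did not overlap at all, a pattern of complete separation between 2 and 6 weeks that 2.27% of all genes had. Irf8 changed by 0.94 (adjusted P = 0.0044, SE 0.17) at 2 weeks, by 1.61 (adjusted P = 3.11e-06, SE 0.17) at 6 weeks and by 0.68 (adjusted P = 0.0218, SE 0.16) from 2 to 6 weeks.

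Irf9 and Stat2 are a DNA-binding and a transactivating part of the complex that reads the ISRE. Irf9 (ENSMUSG00000002325, chr14:55603571-55610030) was at 8.6, 17.4 and 21.7 CPM in the control group, at 18.6, 30.3 and 41 in the 2-week mice and at 27.9, 35.1 and 53.3 in the 6-week mice. All 6-week mice and 4 of 6 mice at 2 weeks exceeded the highest control, and the 2-week and 6-week ranges overlapped widely. The changes were 0.83 (adjusted P = 0.0431, SE 0.23) at 2 weeks and 1.19 (adjusted P = 0.000923, SE 0.23) at 6 weeks, with 0.36 (adjusted P = 0.377, SE 0.22) between 2 and 6 weeks. Stat2 (ENSMUSG00000040033, chr10:128270559-128292849) was at 11.7, 17.4 and 24.9 CPM in the control group, at 17.6, 29.2 and 36.6 in the 2-week mice and at 28.4, 43.1 and 49.6 in the 6-week mice. It did not pass the test at 2 weeks, at 0.61 (adjusted P = 0.0782, SE 0.2), and rose by 1.15 (adjusted P = 0.000327, SE 0.2) at 6 weeks, when its mice no longer overlapped the controls. Irf1, a factor induced mainly by interferon gamma and one of the genes with a GAS match (ENSMUSG00000018899, chr11:53770014-53778374), was at 12.5, 16.9 and 21.5 CPM in the control group, at 16.3, 20.5 and 24.7 in the 2-week mice and at 19, 20.8 and 25.4 in the 6-week mice. The groups overlapped, with 1 mouse at 2 weeks and 2 mice at 6 weeks above the highest control. Irf1 did not pass at either time, at 0.27 (adjusted P = 0.232, SE 0.13) and 0.33 (adjusted P = 0.0616, SE 0.13), which makes it the one factor of the 5 without a call. An exon of Irf9 overlaps Rnf31 on the same strand, and exons of Irf1 and Irf7 overlap Gm17334 and Phrf1 on the opposite strand. The strand setting of the counting was not stated, so reads from the overlapping stretches may be mixed.

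**Figure D3:**
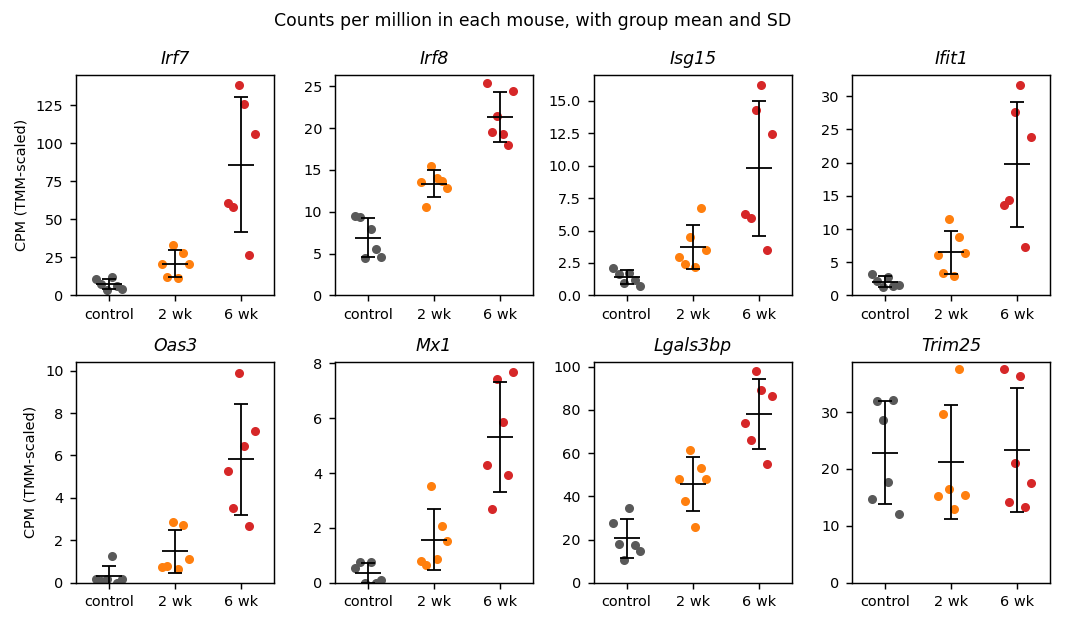
CPM in each mouse (points) with the group mean and SD (black) for 8 of the genes, each panel with its own linear axis from 0, in controls (gray), at 2 weeks (orange) and at 6 weeks (red). Irf8 separates all 3 groups, the 6-week mice of Irf7 spread from 26.5 to 138 CPM, and the Trim25 groups overlap.

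The Isg15 system attaches the ubiquitin-like protein Isg15 to other proteins. Isg15 (ENSMUSG00000035692, chr4:156199424-156200818) was at 0.69, 1.44 and 2.15 CPM in the control group, at 2.22, 3.23 and 6.76 in the 2-week mice and at 3.54, 9.34 and 16.2 in the 6-week mice. Every irradiated mouse at either time lay above every control, although at 2 weeks the change of 1.38 (adjusted P = 0.0738, SE 0.44) did not pass the test. At 6 weeks Isg15 was up by 2.76 (adjusted P = 7.49e-05, SE 0.4), and it gained 1.37 (adjusted P = 0.0274, SE 0.34) from 2 to 6 weeks. Usp18, the protease that removes Isg15 and also restrains the interferon receptor (ENSMUSG00000030107, chr6:121245906-121270917), was at 0.925, 2.17 and 3.75 CPM in the control group, at 1.83, 5.02 and 11.2 in the 2-week mice and at 7.48, 15 and 22.5 in the 6-week mice. At 2 weeks 4 of 6 mice were above the controls, and at 6 weeks all were. Its changes were 1.25 (adjusted P = 0.109, SE 0.44), 2.73 (adjusted P = 0.000107, SE 0.41) and, from 2 to 6 weeks, 1.48 (adjusted P = 0.026, SE 0.36). Herc6, the main ligase of the mouse system, rose by 1.23 (adjusted P = 0.000272, SE 0.2) at 6 weeks. Trim25, a ubiquitin ligase that acts on the RNA sensor RIG-I (ENSMUSG00000000275, chr11:88999376-89020293), was at 12.2, 23.2 and 32 CPM in the control group, at 13, 16 and 37.5 in the 2-week mice and at 13.3, 19.2 and 37.5 in the 6-week mice. Its 18 values fell into a lower cluster of at most 21.0 CPM and an upper cluster of at least 28.7 CPM, with 3 controls, 2 mice at 2 weeks and 2 at 6 weeks in the upper cluster. Its changes were -0.11 (adjusted P = 0.894, SE 0.33) at 2 weeks and 0.033 (adjusted P = 0.959, SE 0.33) at 6 weeks, and the 6-week sign turned with some alternatives.

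The IFIT proteins, which bind foreign RNA ends and block its translation, were the only role group in which all 4 genes rose both by 6 weeks and between 2 and 6 weeks. Ifit1 (ENSMUSG00000034459, chr19:34640871-34650009) was at 1.2, 1.94 and 3.25 CPM in the control group, at 2.94, 6.27 and 11.5 in the 2-week mice and at 7.24, 19.1 and 31.7 in the 6-week mice. At 2 weeks 5 of 6 mice, and at 6 weeks all, were above the highest control. Ifit1 rose by 1.63 (adjusted P = 0.0314, SE 0.42) at 2 weeks, by 3.21 (adjusted P = 1.48e-05, SE 0.39) at 6 weeks and by 1.59 (adjusted P = 0.015, SE 0.34) between these times. Ifit2 (ENSMUSG00000045932, chr19:34550694-34576419) was at 8.71, 12.3 and 16.9 CPM in the control group, at 9.14, 22 and 41.1 in the 2-week mice and at 34.5, 47.2 and 101 in the 6-week mice. Its 2-week mice ran from within the control range to well above it, and the change of 0.85 (adjusted P = 0.13, SE 0.32) did not pass, while at 6 weeks it was 2.27 (adjusted P = 5.46e-05, SE 0.32) with no overlap. Between 2 and 6 weeks Ifit2 gained 1.42 (adjusted P = 0.015, SE 0.3). Ifit3 and Ifit3b share 61.8% and 54.1% of their 31-base sequences with each other, so reads may be split between them and their separate values are uncertain. Summed, they were at 5.37, 8.71 and 13.0 CPM in the control group, at 9.55, 17.5 and 40.3 in the 2-week mice and at 22.8, 48.5 and 93.5 in the 6-week mice. The sum at 6 weeks lay above that of every control in all mice.

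Sensors of double-stranded RNA and the enzymes they drive rose in 8 of 8 cases at 6 weeks, and none of the 8 passed at 2 weeks. The group holds the oligoadenylate synthetases Oas1a, Oas2 and Oas3 and their relatives Oasl1 and Oasl2, the kinase Eif2ak2 (PKR), which stops translation, and the helicases Dhx58 and Ddx60. Oas3 (ENSMUSG00000032661, chr5:120753098-120777661) had the greatest change of the 39 genes, from a level near the detection limit. It was at 0, 0.179 and 1.25 CPM in the control group, at 0.654, 0.951 and 2.85 in the 2-week mice and at 2.65, 5.85 and 9.91 in the 6-week mice. Control mouse 4 held the 1.25 CPM, and the other 5 controls were at or below 0.195 CPM, which is 3 counts in the deepest control library. All 6-week mice were above it. The changes were 2.13 (adjusted P = 0.0761, SE 0.68) at 2 weeks, 4.08 (adjusted P = 3.59e-05, SE 0.55) at 6 weeks and 1.95 (adjusted P = 0.0137, SE 0.41) between them, and with control counts summing to 26 over 6 mice the size is imprecise. Oasl1, which holds back translation of Irf7 mRNA (ENSMUSG00000041827, chr5:114923240-114937915), was at 0.37, 0.973 and 2.08 CPM in the control group, at 1.2, 2.82 and 5.91 in the 2-week mice and at 5.63, 11.7 and 17 in the 6-week mice. Again 4 of 6 mice at 2 weeks and all at 6 weeks exceeded the controls. Oasl1 changed by 1.41 (adjusted P = 0.107, SE 0.49), 3.31 (adjusted P = 2.89e-05, SE 0.43) and, from 2 to 6 weeks, 1.90 (adjusted P = 0.00886, SE 0.37). The other members rose at 6 weeks by between 1.03 (Eif2ak2) and 2.62 (Oas1a). Oas1a shares 68.7% of its 31-base sequences with Oas1g, and its own value is uncertain for that reason. In Ddx60, 5 of the 6 mice at 6 weeks lay above the highest control.

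Antiviral effectors that act at membranes or on viral particles and nucleotides rose in 8 of 8 cases at 6 weeks, and Bst2 and Ifitm3 also at 2 weeks. Ifitm3, which blocks fusion of virus with endosomes (ENSMUSG00000025492, chr7:141009586-141010770), was at 58.3, 80.6 and 104 CPM in the control group, at 98.3, 119 and 141 in the 2-week mice and at 137, 161 and 178 in the 6-week mice. All 6-week mice and 4 of the 2-week mice lay above the highest control. Per length, on the TPM scale, its medians were 180.1, 316 and 459.8, against 4.74, 14.8 and 66 for Irf7. Ifitm3 thus had the higher level and the smaller change, at 0.56 (adjusted P = 0.0193, SE 0.13) at 2 weeks and 0.999 (adjusted P = 3.32e-05, SE 0.13) at 6 weeks. Bst2 (tetherin), which holds budding virus on the cell (ENSMUSG00000046718, chr8:71534255-71537456), was at 3.89, 10.5 and 12 CPM in the control group, at 12.1, 22.2 and 26.5 in the 2-week mice and at 17.2, 41.9 and 61.9 in the 6-week mice. Every irradiated mouse was above every control. Bst2 rose by 1.17 (adjusted P = 0.0279, SE 0.29) at 2 weeks and 2.15 (adjusted P = 4.49e-05, SE 0.29) at 6 weeks, and by 0.99 (adjusted P = 0.0443, SE 0.28) between them. Mx1, a dynamin-like GTPase that traps viral ribonucleoprotein (ENSMUSG00000000386, chr16:97447035-97462907), was at 0, 0.303 and 0.763 CPM in the control group, at 0.641, 1.19 and 3.55 in the 2-week mice and at 2.71, 5.07 and 7.67 in the 6-week mice. The control counts were between 0 and 11 per mouse, and all 6-week mice were above the highest control. Mx1 did not pass at 2 weeks, at 2.07 (adjusted P = 0.0586, SE 0.61), and rose by 3.79 (adjusted P = 3.72e-05, SE 0.51) at 6 weeks and by 1.73 (adjusted P = 0.0175, SE 0.38) from 2 to 6 weeks. Rsad2 (viperin), which makes a chain-terminating nucleotide, rose by 2.34 (adjusted P = 0.000137, SE 0.36) at 6 weeks, with 5 of 6 mice above the highest control. Its genomic neighbor Cmpk2, a mitochondrial nucleotide kinase, rose by 1.52 (adjusted P = 0.000548, SE 0.28). Mx2, Rtp4 and Samd9l rose by 2.12, 1.69 and 0.83 in the same comparison.

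The ADP-ribosylation group, Parp9 with its partner ligase Dtx3l and the related Parp14, rose in 3 of 3 genes at 6 weeks with the smallest median change of the role groups, 0.82. Parp9 (ENSMUSG00000022906, chr16:35938470-35972605) was at 12.2, 16.7 and 19.2 CPM in the control group, at 18.2, 19.7 and 26.1 in the 2-week mice and at 21.4, 29.1 and 36.1 in the 6-week mice. Its 6-week mice were above all controls, though by a small margin. The changes were 0.32 (adjusted P = 0.184, SE 0.13) at 2 weeks, 0.81 (adjusted P = 0.000226, SE 0.13) at 6 weeks and 0.50 (adjusted P = 0.0355, SE 0.13) between them. Parp14 (ENSMUSG00000034422, chr16:35832874-35871544) was at 21.6, 33.8 and 43.3 CPM in the control group, at 33.4, 52.2 and 68.1 in the 2-week mice and at 52.8, 74.9 and 91.4 in the 6-week mice. The 6-week group again did not overlap the controls. Parp14 changed by 0.62 (adjusted P = 0.069, SE 0.19) at 2 weeks and rose by 1.15 (adjusted P = 0.000292, SE 0.19) at 6 weeks. Dtx3l rose by 0.82 (adjusted P = 0.000466, SE 0.15), and because Parp9 and Dtx3l share 458 exon bases on opposite strands, reads from the shared stretch may be mixed.

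Of the 7 remaining genes, 6 rose at 6 weeks. Lgals3bp, a secreted glycoprotein that binds galectin-3 (ENSMUSG00000033880, chr11:118392751-118402092), was at 10.7, 17.6 and 34.7 CPM in the control group, at 25.6, 48.1 and 61.4 in the 2-week mice and at 54.8, 80.2 and 97.9 in the 6-week mice. At 2 weeks 5 of 6 mice, and at 6 weeks all, exceeded the highest control. Lgals3bp rose by 1.15 (adjusted P = 0.0118, SE 0.24) at 2 weeks and by 1.92 (adjusted P = 2.28e-05, SE 0.25) at 6 weeks. Xaf1, a binding partner of the apoptosis inhibitor XIAP (ENSMUSG00000040483, chr11:72301629-72313733), was at 5.61, 8.02 and 11.1 CPM in the control group, at 8.83, 11.5 and 19.5 in the 2-week mice and at 13.9, 21.1 and 34.1 in the 6-week mice. The 6-week mice and the controls did not overlap. Xaf1 changed by 0.65 (adjusted P = 0.116, SE 0.23), 1.46 (adjusted P = 0.000162, SE 0.23) and, from 2 to 6 weeks, 0.81 (adjusted P = 0.0393, SE 0.22). Ifi44, Trim30a, Ifi27 and Ifi35 rose at 6 weeks by 2.49, 1.02, 0.95 and 0.60, and in Trim30a and Ifi35 a single 6-week mouse fell within the control range. Ifi203, a member of the family of DNA-binding PYHIN proteins (ENSMUSG00000039997, chr1:173920407-173942672), was at 10.5, 15.3 and 23.8 CPM in the control group, at 10.4, 16.1 and 17.9 in the 2-week mice and at 17.9, 20.1 and 24 in the 6-week mice. Only 1 mouse at 6 weeks was above the highest control, and no mouse at 2 weeks was. Its changes of -0.082 (adjusted P = 0.835, SE 0.17) and 0.35 (adjusted P = 0.135, SE 0.16) did not pass, and 21.6% of its 31-base sequences also occur in other genes.

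The mice of a group differed from each other in the same direction across most of the genes. As a summary for each mouse, the median over the 39 genes of the log2 difference from the control mean was taken. In controls it ran from -0.58 in mouse 3 to 0.47 in mouse 1, and mouse 3 was the lowest control in 29 of the 39 genes, where it was the lowest in 18.9% of all tested genes. At 2 weeks the medians were 0.74, 0.34, 1.46, 0.28, 0.999 and 0.76 in mice 1 to 6. Mice 2 and 4 were above the highest control in 7 and 5 of the 39 genes, and the other 4 mice in 27 to 37. The share of all genes above the highest control was not computed for single mice. These counts, and those at 6 weeks, therefore have no background beside them. Mouse 3 was the highest of the 2-week group in 29 genes, where it was the highest in 17.3% of all genes. At 6 weeks the medians were 1.38, 1.27, 2.14, 1.74, 1.06 and 1.81, and each mouse was above the highest control in 34 to 38 genes. Mouse 5 was the lowest of the 6-week group in 32 genes, against 18.6% of all genes, and its median was below that of 2-week mouse 3. So the 2-week group held both mice near the control range and a mouse within the 6-week range.

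**Figure D4:**
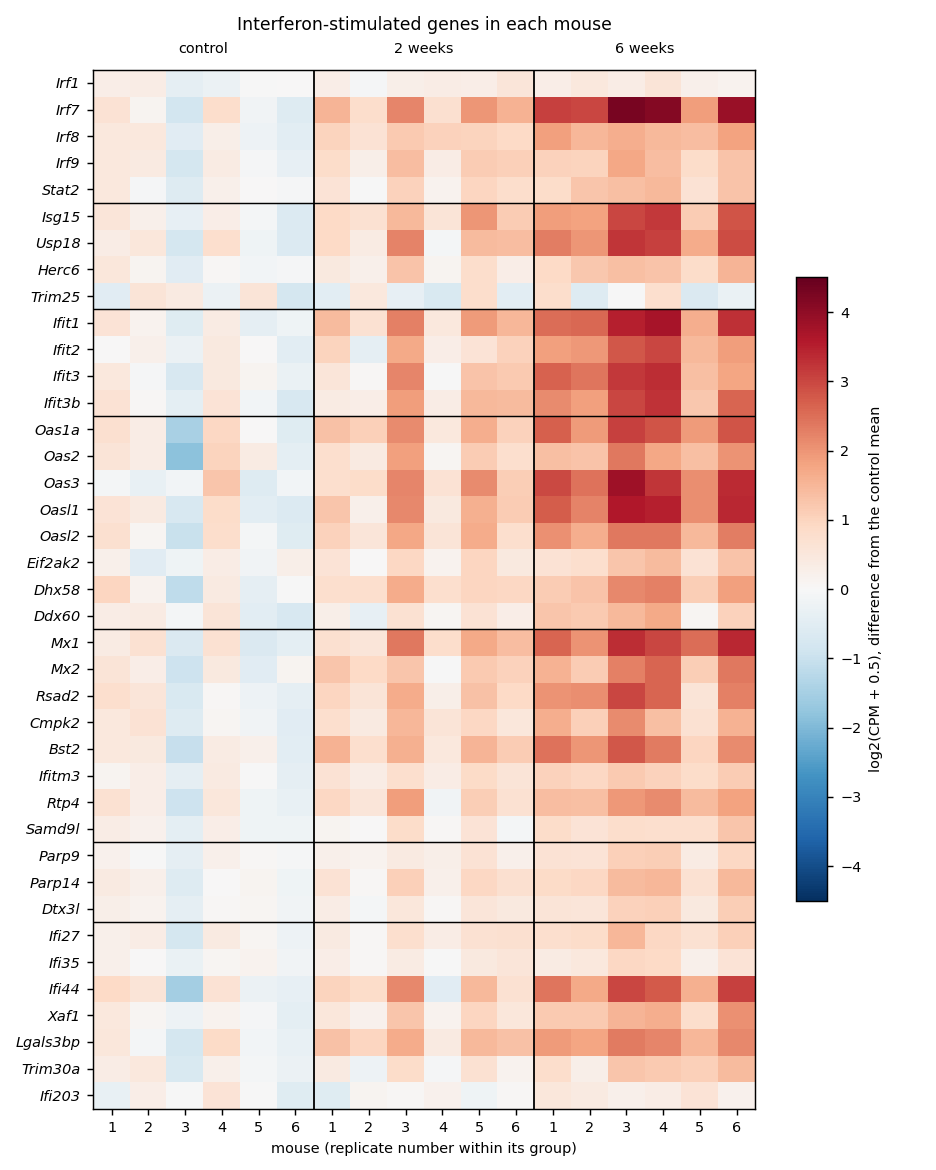
Log2(CPM + 0.5) of each of the 39 genes (vertical, grouped by role) in each of the 18 mice (horizontal, numbered within control, 2 weeks and 6 weeks), as the difference from the control mean (red higher, blue lower). Columns are shaded as a whole, with mice 2 and 4 at 2 weeks pale, mouse 3 at 2 weeks dark and mouse 5 the palest at 6 weeks.

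The interferons themselves were at or below the detection limit. None of 21 listed interferon genes passed the filter, 15 had no count in any mouse, and no mouse had more than 3 counts of any of them, the limit that a count of 0 allows. Over the 6 mice of a group, the 21 genes summed to 5 counts in controls, to 10 at 2 weeks and to 13 at 6 weeks. The receptors, kinases, other signaling genes and negative regulators gave 21 tested genes, of which 4 were higher at 2 weeks, against 3.1% of all genes, and 9 were higher and 2 lower at 6 weeks, against 13.5% and 11.5%. Both chains of the type I receptor were among the higher ones. Ifnar1 was at 30.3, 33.1 and 38.4 CPM in the control group, at 40.7, 41.4 and 42.2 in the 2-week mice and at 38.1, 48 and 56.1 in the 6-week mice. The 2-week mice lay above all controls, and 5 of 6 mice did at 6 weeks, with a change of 0.29 (adjusted P = 0.0553, SE 0.084) at 2 weeks, short of a call, and of 0.48 (adjusted P = 0.000401, SE 0.084) at 6 weeks. Ifnar2 rose by 0.37 (adjusted P = 0.00164, SE 0.077) at 6 weeks. Of the interferon gamma receptor chains, Ifngr1 was at 0.26 (adjusted P = 0.084, SE 0.11) and Ifngr2 at -0.33 (adjusted P = 0.000242, SE 0.054) at 6 weeks, the latter a call. Ifngr2 was at 173, 178 and 189 CPM in the control group, at 155, 163 and 181 in the 2-week mice and at 127, 144 and 155 in the 6-week mice. Il10rb was also lower, at -0.28 (adjusted P = 0.00375, SE 0.065). The calls of Ifngr2 and Il10rb were lost when counts were scaled by library size alone, where the changes were -0.06 and -0.02, and turned to 0.04 and 0.05 on the log2(TPM + 1) scale. Scaling by library size alone raised the median of all genes at 6 weeks to 0.24, and log2(TPM + 1) to 0.29. Under the former, 15 signaling genes were higher and 0 lower, and the split over all genes was 5490 higher and 326 lower in place of 2028 and 1731. Ifnlr1, the chain specific to interferon lambda, was at -0.059 (adjusted P = 0.847, SE 0.17).

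Of the receptor kinases, Tyk2 rose by 0.36 (adjusted P = 0.00514, SE 0.088) at 6 weeks, while Jak1 was at -0.048 (adjusted P = 0.6, SE 0.058) and Jak2 at 0.15 (adjusted P = 0.101, SE 0.064). Irf5, a factor of myeloid cells, rose by 1.57 (adjusted P = 1.28e-05, SE 0.19), and of the negative regulators Socs3 and Ptpn6 rose by 0.996 (adjusted P = 0.000198, SE 0.16) and 1.51 (adjusted P = 5.4e-05, SE 0.21). A further 40 interferon-inducible genes, a list also drawn up with earlier results of these data known and so no independent evidence, were tested. Of these, 7 were higher at 2 weeks, 34 at 6 weeks and 10 between 2 and 6 weeks, against 3.1%, 13.5% and 3.31% of all genes, and 0 were lower, with median log2 fold changes of 0.44, 1.13 and 0.70. The smallest adjusted P at 6 weeks were those of Ms4a4c, Lgals9, Sp110, Apol9a and Slfn1. Lgals9 (galectin-9) was at 9.49, 20.2 and 22.3 CPM in the control group, at 24.4, 28.5 and 44.3 in the 2-week mice and at 38.8, 50.5 and 58.7 in the 6-week mice. It rose by 1.50 (adjusted P = 2.89e-05, SE 0.2) with every irradiated mouse above the controls, and Sp110, a nuclear body protein, rose by 1.19 (adjusted P = 4.57e-05, SE 0.16). Ms4a4c, Apol9a and Slfn1 rose by 4.24, 4.05 and 3.89 from control levels near the detection limit.

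Markers of some other cell types, but not of all, moved in the same comparison. The shares of all genes to set beside these counts were 3.1% higher at 2 weeks, and 13.5% higher and 11.5% lower at 6 weeks. Of 12 macrophage and monocyte markers, 3 were higher at 2 weeks and 11 at 6 weeks. Their summed level was 175 to 524 CPM in controls, with a median of 264, 343 to 442 CPM at 2 weeks and 469 to 629 CPM at 6 weeks. Several genes of the list, among them Irf8, are also expressed by macrophages. In controls 1 to 6 the sums were 271, 257, 175, 524, 279 and 227 CPM, beside medians over the interferon-stimulated genes of 0.47, 0.29, -0.58, 0.39, -0.11 and -0.38, so that the mice with the lowest sums, 3 and 6, also had the lowest medians, and mouse 4 with the highest sum did not have the highest median. In the 2-week mice the sums were 344, 343, 368, 414, 442 and 416 CPM, and mouse 3 with the highest median was in the middle of them. In the 6-week mice they were 484, 469, 539.6, 513, 587 and 629 CPM. Mice 2, 1, 4 and 3 rose in that order in both measures, while mouse 5 had the lowest median at the second highest sum. Lymphocyte markers were sparse. T and NK markers summed to 0.83 to 2.08 CPM in controls, 1.17 to 3.05 at 2 weeks and 4.12 to 6.27 at 6 weeks, with 2 of 4 tested markers higher at 6 weeks, and B cell markers to 0.46 to 0.83, 0.33 to 2.98 and 1.13 to 2.63 CPM, with 2 of 3. Markers of plasmacytoid dendritic cells, a main source of type I interferon, summed to at most 2.21 CPM in any mouse, and 0 of 2 tested passed. Of 6 endothelial markers, 2 were higher and 3 lower at 6 weeks, and their sum was 806 to 988 CPM in controls, 877 to 996 at 2 weeks and 963 to 1225 at 6 weeks. Of 6 fibroblast markers, 1 was lower at 6 weeks, near the share of all genes, and of 7 cardiomyocyte markers, 6 were. The 7 changed by a median of -0.46, with a range of -0.61 to -0.26. Scaling by library size alone raised the median of all genes to 0.24, and its effect on these markers is not given. Of 6 smooth muscle and pericyte markers, 0 were called at 6 weeks. Then 1 of 2 tested neutrophil markers was higher, and 1 of 4 tested red blood cell markers was lower. The part of these cell types in the changes of the interferon-stimulated genes was not tested.

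**Figure D5:**
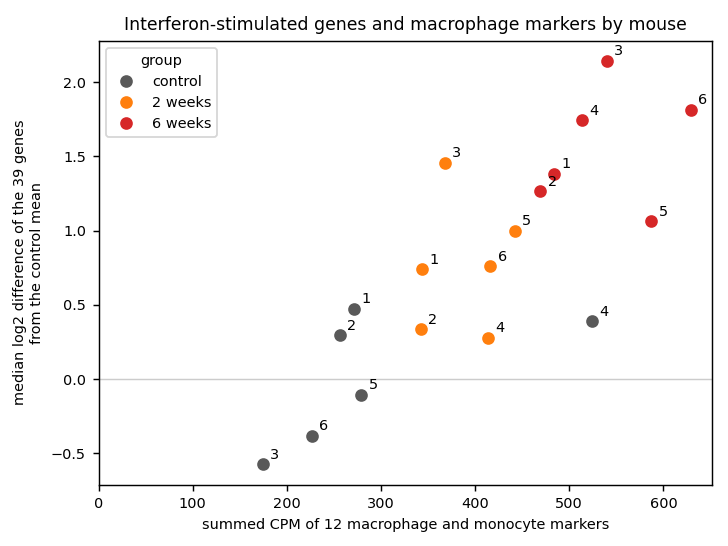
For each mouse (points, numbered within the group), the median log2 difference of the 39 genes from the control mean (vertical) against the summed CPM of 12 macrophage and monocyte markers (horizontal), in controls (gray), at 2 weeks (orange) and at 6 weeks (red). Irradiated mice at 6 weeks lie to the upper right of most controls, control mouse 4 lies at 524 CPM and 0.39, and mouse 5 at 6 weeks at 587 CPM and 1.06.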

How the data were processed

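RNA from 18 mice was sequenced with 150-base paired reads. The authors aligned reads to GRCm38 with STAR and quantified them with Salmon 1.0, and the submitters' processing notes also name CASAVA 1.8. The deposited tables hold estimated counts per gene, not normalized, and TPM per gene. Counts were rounded, and a gene was tested when 6 or more mice had 0.23 CPM or above. The 3 groups entered a single edgeR 4.0.16 quasi-likelihood fit with TMM scaling and no covariate, with two-sided P-values adjusted over all 15054 genes for each comparison. A fold change was given with its SE. The script was tested on simulated counts of independent genes with the same spread for every gene. That checks the code and not the calls of these genes, whose spreads differ. Groups came from the labels. Alternatives used DESeq2 1.42.0, limma 3.58.1, other scalings, filters and covariates, limma on TPM, a replicate block, and leaving out each mouse. Full values were given for the transcription factors, the 2 genes of every other role with the smallest adjusted P at 6 weeks, and every gene without a call then. Bst2 was added after its values were seen. Of 30072 identifiers, 29301 matched a symbol. Sequences came from RefSeq (GRCm38.p6), gene coordinates from GENCODE. Members and lists were chosen with earlier results of these data known. The values of 1 signaling gene are not reported here.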

Additional observations from a re-analysis of the deposited data

Results flagged for a closer look

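In 4 of 117 combinations of gene and group, a single mouse lay far from the other 5 by Dixon's criterion, where chance gives about 6. These were Oas3 in control mouse 4 (1.25 CPM, nearest mouse 0.195), Dhx58 in mouse 3 at 2 weeks (6.33 CPM, nearest 3.71), Mx2 in mouse 4 at 2 weeks (1.50 CPM, nearest 3.29) and Samd9l in mouse 6 at 6 weeks (33.7 CPM, nearest 25.3).

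In 19 of the 39 genes the change at 6 weeks differed from that at 2 weeks by edgeR's test of 6 against 2 weeks. The difference on the log2 scale was 2.03 for Irf7, 0.68 for Irf8, 1.37 for Isg15, 1.48 for Usp18, 1.59 for Ifit1, 1.42 for Ifit2, 1.54 for Ifit3 and 1.45 for Ifit3b. It was 1.32 for Oas1a, 1.95 for Oas3, 1.90 for Oasl1, 0.91 for Ddx60, 1.73 for Mx1, 1.32 for Rsad2 and 0.99 for Bst2. It was 0.50 for Parp9, 0.52 for Dtx3l, 1.47 for Ifi44 and 0.81 for Xaf1. All 19 were higher at 6 weeks.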

How the results depend on the processing

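The 36 genes called at 6 weeks kept their calls under each alternative of test, scaling, filter, covariate and left-out mouse, with 36 to 38 genes called, and 30 of them also passed a log2 threshold of 1. The direction of the called genes did not turn in any comparison. The 2-week count was 7 and moved to 22 with DESeq2, 3 with voom with or without quality weights, 24 with library size only, 26 with log2(TPM + 1), 32 with log2(TPM + 0.1) and 4 with a log2 threshold of 1 or without control mouse 4 and 2-week mouse 5. Leaving out 1 mouse gave 2 to 12 calls at 2 weeks, 36 to 37 at 6 weeks and 6 to 24 between 2 and 6 weeks. The shares of all genes called were then 3.01% to 5.87%, 20.6% to 26.2% and 2.18% to 6.62%. Scaling by library size or TPM also raised the calls over all genes at 2 weeks from 5.04% to 11.9%, 18.7% and 20.1%, and DESeq2 to 9.04%. At 6 weeks the calls over all genes went from 25% to 38.6% with library size only and to 49.6% on both TPM scales. Between 2 and 6 weeks they went from 5.32% to 7.98% with library size only and to 7.13% with log2(TPM + 1). They were then 8.05% with DESeq2, 7.95% with weighted voom and 2.67% with no filter. For the signaling genes, the 2-week count of 4 became 7 with DESeq2, 8 with library size only, 11 and 12 on the TPM scales, and 1 to 5 without 1 mouse. Their 6-week count of 11 became 17 on both TPM scales and 10 to 12 without 1 mouse, and their count of 3 between 2 and 6 weeks became 5 with library size only or log2(TPM + 1), 1 with no filter and 0 to 3 without 1 mouse. For the further interferon-inducible genes, the 2-week count of 7 became 13 with DESeq2, 4 with voom and weights, 3 with voom or without the same 2 mice, 17 with library size only, 18 and 20 on the TPM scales and 1 to 8 without 1 mouse. Their 6-week count was 31 to 34 without 1 mouse. Their count of 10 between 2 and 6 weeks became 20 with DESeq2, weighted voom or log2(TPM + 1), 28 with library size only and 2 to 15 without 1 mouse. The cause of these shifts was not tested.

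The replicate numbers gave no sign of pairing over all tested genes, where the correlations of same-numbered deviations ran from -0.083 to 0.106. Pairing that touches only a part of the genes was not tested. With a replicate block, 2, 36 and 10 of the 39 genes were called at 2 weeks, at 6 weeks and between them. The shares of all genes called were then 3.87%, 23.6% and 3.62%. With the same block, 2 signaling genes and 4 further inducible genes were called at 2 weeks. Trim25 turned positive at 2 weeks with library size only (0.044), log2(TPM + 1) (0.12) and log2(TPM + 0.1) (0.15), and ranged from -0.42 (without control mouse 4 and 2-week mouse 5) to 0.015 (without control mouse 5) when mice were left out. Ifi203 turned positive at 2 weeks with the same settings (0.062, 0.20 and 0.23), and ranged from -0.18 without control mouse 6 to 0.10 without control mouse 4 and 2-week mouse 5. Trim25 at 6 weeks turned negative with weighted voom (-0.037) and ranged from -0.16 without 6-week mouse 1 to 0.16 without control mouse 5, with -0.029 without the 2 mice together. Between 2 and 6 weeks it ranged from -0.052 without 6-week mouse 1 to 0.39 without those 2 mice. None of these had passed the test.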
